A study of Mus musculus with 12 samples.

Results

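Skeletal muscle expression was followed in RNA from newborn mouse skull through 47 genes that encode the sarcomere, the calcium release and re-uptake machinery and the energy supply of the muscle fibre. The genes were taken by name from a list drawn up with earlier results of these data known, by a rule that uses no threshold on a measured value, and all 47 of the 47 named had a row in the count table, which holds 23358 genes. The dissected tissue was the frontal bone with the nasal bone and 2 kinds of suture, the coronal and the frontonasal, taken at postnatal day 3. C57BL/6 and BALB/c mice were used, each as wild type and as FGFR2C342Y/+ heterozygotes, the allele of a mouse model of Crouzon syndrome, a disorder of premature suture fusion in the skull. There were 3 samples in each of the 4 groups, 12 in all, and they are named here by the numbers in their labels: C57BL/6 wild type 1, 2 and 3, C57BL/6 mutant 4, 5 and 6, BALB/c wild type 13, 14 and 15, and BALB/c mutant 16, 17 and 18. Sex was not given, and the tissue of all samples was digested with collagenase and trypsin before RNA extraction. The mutation changes the coding sequence of 1 Fgfr2 allele, so gene counts do not check the genotype labels.

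The sarcomere is the contractile unit of striated muscle, in which myosin thick filaments pull on actin thin filaments, and troponin on the thin filament makes the pull depend on calcium. Skeletal muscle changes its myosin heavy chains as it matures: embryonic (Myh3) and neonatal or perinatal (Myh8) forms come first, and the adult fast forms (Myh1, Myh2 and Myh4) replace them around and after birth, while the slow form (Myh7) is already made in embryonic muscle and stays on in slow fibres. Calcium is released from the sarcoplasmic reticulum by the ryanodine receptor Ryr1, which is opened by the voltage sensor Cacna1s, and is pumped back by Atp2a1. Bone of the skull vault forms without muscle, but muscles of the head and their tendons lie on it and attach to it.

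The libraries held 27.2 M to 46.5 M counts. Osteoblast markers were abundant: the 6 listed together held 61694 to 141408 CPM over the 12 samples (CPM are counts scaled to a common library size, adjusted for composition). The markers of muscle fibres were low by comparison, with 82.9 to 776 CPM for the 47 genes together. The C57BL/6 and the BALB/c samples carry the identifiers of different flow cells, so strain and flow cell cannot be told apart. Nothing in the labels says that the 3 samples of a group came from separate animals, so the p-values measure only the spread between these samples, which may be technical. In such bulk RNA, fewer muscle cells and less muscle RNA per cell cannot be told apart.

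A pair of libraries stood apart before any comparison was made. Summed over the 47 genes, C57BL/6 wild type 1, 2 and 3 held 94.7, 231 and 82.9 CPM, and C57BL/6 mutant 4, 5 and 6 held 89.4, 89.9 and 96.1 CPM. BALB/c wild type 13, 14 and 15 held 97.8, 105 and 107 CPM, and BALB/c mutant 16, 17 and 18 held 776, 126 and 96.9 CPM. BALB/c mutant 16 had the highest value of the 12 libraries for 38 of the 47 genes, and C57BL/6 wild type 2 had the highest for 5 and the second highest for 27. BALB/c mutant 16 lay above all of the 10 libraries other than these 2 for 41 genes, and C57BL/6 wild type 2 did so for 30. The difference was uneven between genes. In BALB/c mutant 16, 23 genes were at least 10 times the median of those 10 libraries, while 8 were less than 2 times that median.

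**Figure D1:**
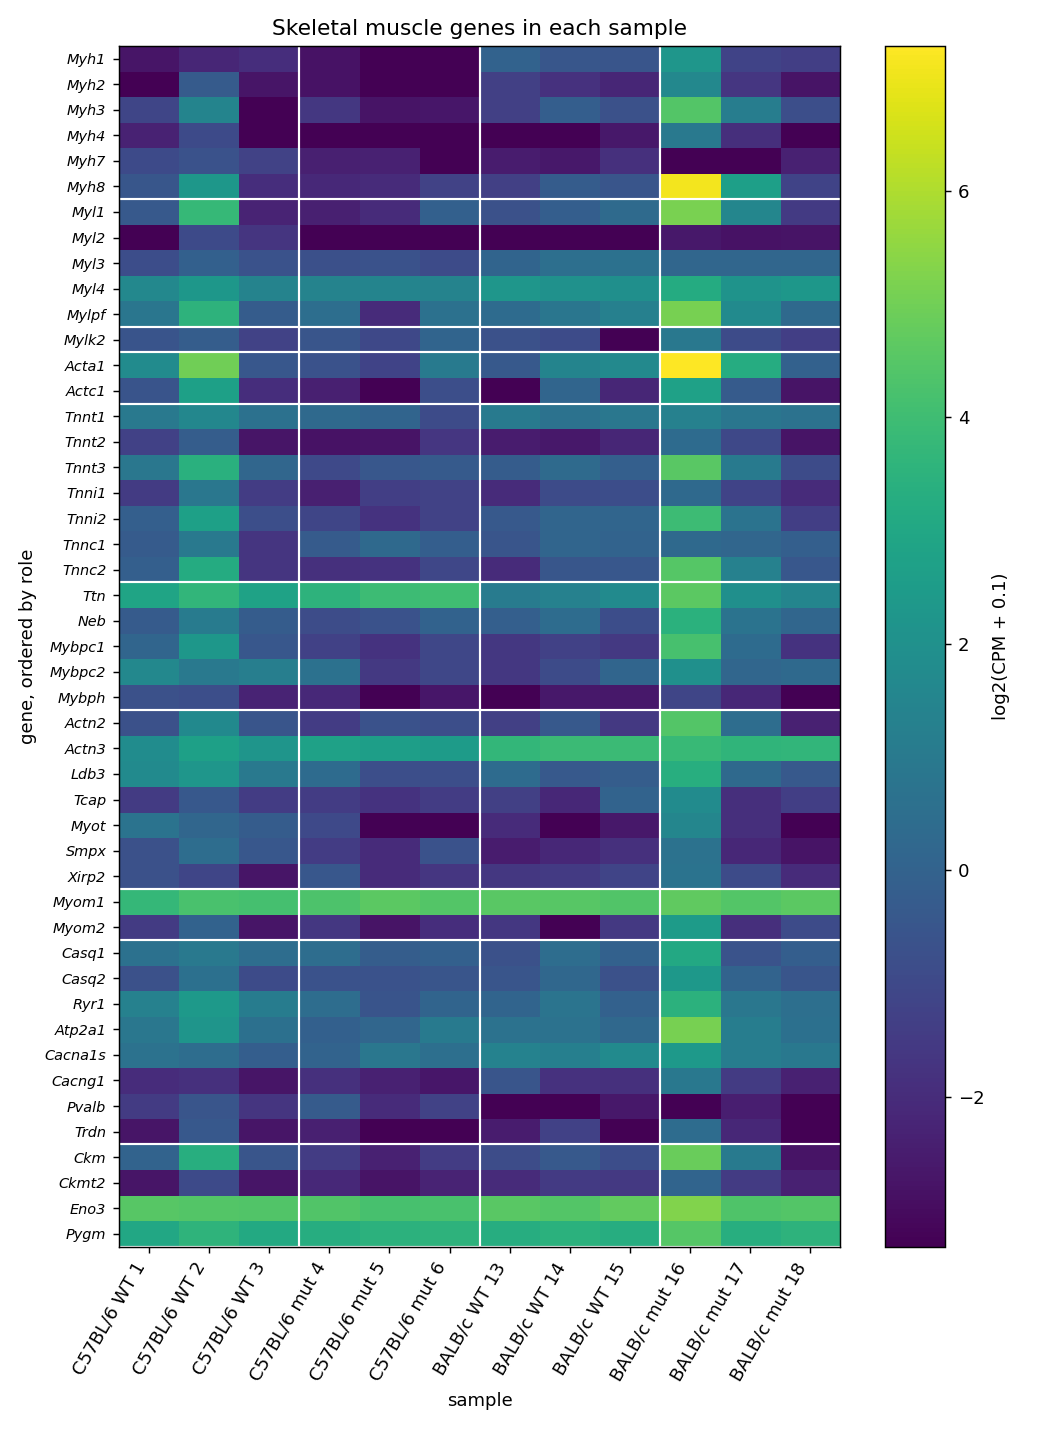
Level of each of the 47 genes (rows, ordered by role, white lines between roles) in each of the 12 samples (columns, white lines between groups), as log2 of CPM plus 0.1 in colour. The column of BALB/c mutant 16 is the brightest for most rows and C57BL/6 wild type 2 the next, while Myom1, Eno3 and Pygm are bright in every column.

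Other cell types were also unevenly present, and their part in the results below was not tested. Markers of Schwann cells, the myelinating cells of peripheral nerve (Mbp and Sox10), summed to 155 CPM in BALB/c mutant 16 and to 7.52 to 26.97 CPM in the other 11 libraries. The 4 fat markers summed to 13.3 CPM in BALB/c mutant 16 against 0.534 to 5.21 CPM in the others, and the 8 smooth muscle markers to 667 against 432 to 586 CPM. Markers of airway and olfactory epithelium (6 genes) summed to 656, 329 and 326 CPM in C57BL/6 wild type 1, 2 and 3 and to 154 CPM in C57BL/6 mutant 4, and to 2.11 to 3.23 CPM in the remaining 8 libraries. One of the 6 genes, the epithelial keratin Krt15, singled out after its values were seen, had 2836 counts in C57BL/6 wild type 2 and 0 to 28 in the other 11, so this muscle-rich library also stood apart in a marker that is not of muscle. The 7 heart markers summed to 3.46 to 6.09 CPM in all libraries. The heart markers thus did not follow the skeletal muscle genes, some of which (Myh7, Tnnc1, Tnnt2, Actc1) are also expressed in heart.

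Among genes that act earlier, in muscle progenitors and differentiating myoblasts, Myog and Myod1 were highest in the same pair of libraries, while Pax7 and Pax3 were not. A sum over the 12 myogenic regulators listed says little of the set, since Mef2c, which is also active in bone, and the cadherin Cdh15 held 5036 and 1628 of its 6956 counts in BALB/c mutant 16 and 6322 and 1142 of 8236 in C57BL/6 wild type 2. Myog, which drives the fusion and differentiation of myoblasts, was at 2.17 CPM in C57BL/6 wild type 2 and at 1.199 CPM in BALB/c mutant 16, and at most at 0.679 CPM elsewhere. Myod1, which commits cells to the muscle lineage, was at 0.903 CPM in C57BL/6 wild type 2 and 0.360 CPM in BALB/c mutant 16, and at 0.172 CPM or less elsewhere. Both regulators were thus higher in the library with fewer sarcomere counts. Pax7, which marks satellite cells, was highest in C57BL/6 wild type 1, 2 and 3, at 6.75, 1.81 and 2.95 CPM, and was at 0.180 CPM in BALB/c mutant 16. Pax3, which acts in muscle precursors and in neural crest, was at 19.8 CPM in C57BL/6 wild type 1 and 0.719 CPM in BALB/c mutant 16.

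The myosin heavy chains, the motors of the thick filament, were led by the developmental forms wherever they could be counted well. Myh8, the neonatal form, was at 0.623, 4.76 and 0.161 CPM in C57BL/6 wild type 1, 2 and 3, at 0.136, 0.146 and 0.323 CPM in C57BL/6 mutant 4, 5 and 6, at 0.300, 0.741 and 0.586 CPM in BALB/c wild type 13, 14 and 15, and at 135, 6.24 and 0.344 CPM in BALB/c mutant 16, 17 and 18. Thus 2 of the 3 BALB/c mutant libraries and 1 C57BL/6 wild type library were high, and the third BALB/c mutant library lay among the wild types. Myh3, the embryonic form, was at 0.364, 2.65 and 0 CPM in C57BL/6 wild type, at 0.226, 0.049 and 0.054 CPM in C57BL/6 mutant, at 0.300, 0.803 and 0.527 CPM in BALB/c wild type, and at 21.9, 2.15 and 0.492 CPM in BALB/c mutant samples, in the order of their numbers. The same 3 libraries were highest for Myh3 as for Myh8.

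The adult fast forms were present at lower levels. Myh2 (type IIa) was at 0, 0.723 and 0.054 CPM in C57BL/6 wild type, at 0.045, 0 and 0 CPM in C57BL/6 mutant, at 0.300, 0.185 and 0.117 CPM in BALB/c wild type, and at 3.00, 0.215 and 0.049 CPM in BALB/c mutant samples. Myh4 (type IIb) was at 0.104, 0.422 and 0 CPM in C57BL/6 wild type, at 0 in all 3 C57BL/6 mutant samples, at 0, 0 and 0.059 CPM in BALB/c wild type, and at 1.86, 0.172 and 0 CPM in BALB/c mutant samples. Myh4 did not pass the filter on low counts and was not tested. A count of 0 allowed up to 0.129 to 0.225 CPM, depending on the library, when the limit is set at 3 fragments, and these limits cover counting error only.

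Myh1 (type IIx) was highest in BALB/c mutant 16, like Myh3 and Myh8. It was at 0.052, 0.120 and 0.161 CPM in C57BL/6 wild type and at 0.045, 0 and 0 CPM in C57BL/6 mutant samples, and at 0.901, 0.618 and 0.586 CPM in BALB/c wild type and 4.68, 0.344 and 0.295 CPM in BALB/c mutant samples. All 6 BALB/c libraries lay above all 6 C57BL/6 libraries, and C57BL/6 wild type 2, rich in other muscle genes, was within the range of its group. The C57BL/6 levels rest on 0 to 6 counts a library. Myh7, the slow form shared with heart, was highest in C57BL/6 wild type samples. It was at 0.416, 0.542 and 0.322 CPM in C57BL/6 wild type, at 0.090, 0.097 and 0 CPM in C57BL/6 mutant, at 0.075, 0.062 and 0.176 CPM in BALB/c wild type, and at 0, 0 and 0.098 CPM in BALB/c mutant samples. The 3 C57BL/6 wild type libraries lay above the other 9, which overlapped between groups. The library with the most muscle RNA, BALB/c mutant 16, thus held no Myh7 read.

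**Figure D2:**
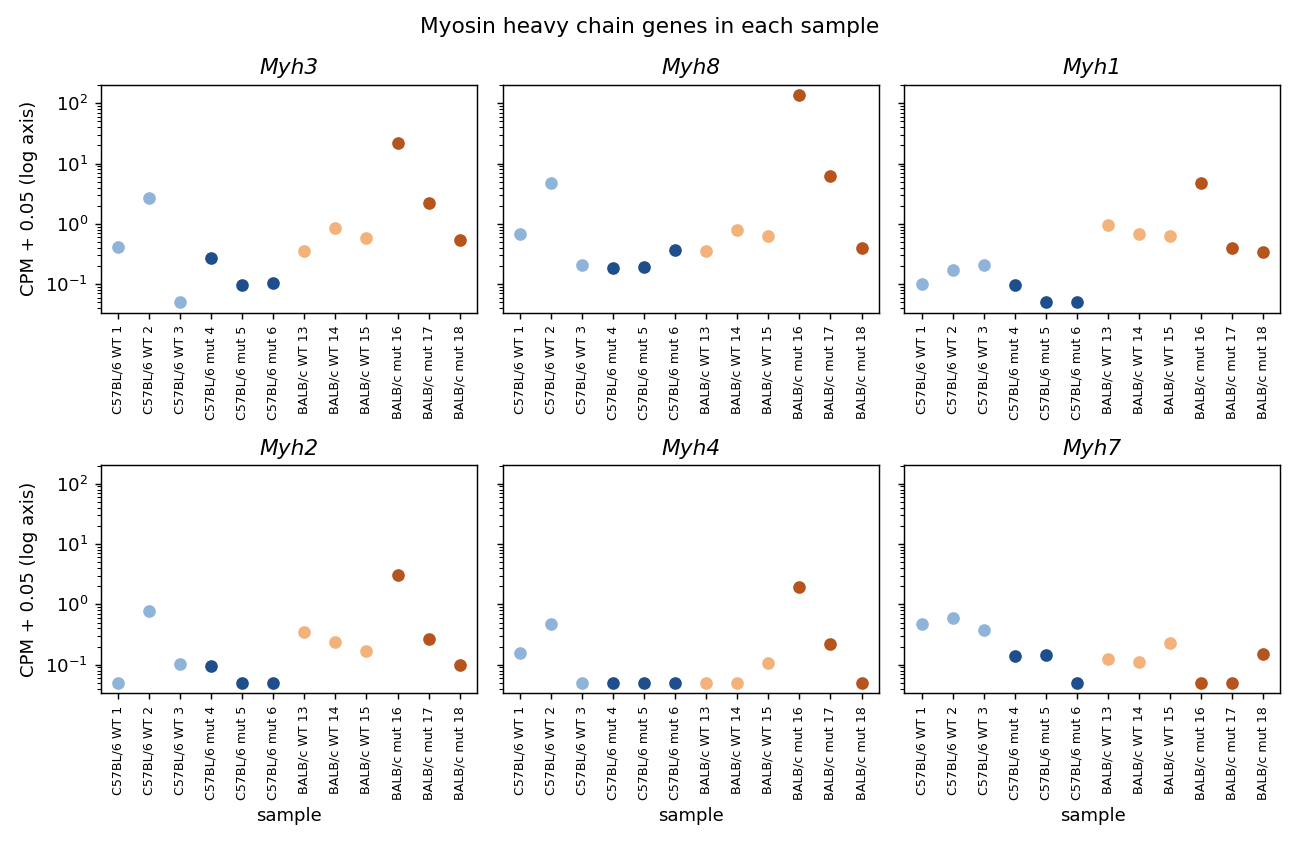
CPM plus 0.05 on a log axis for each of the 6 myosin heavy chain genes (panels) in each of the 12 samples (horizontal axis, coloured by group). Myh3 and Myh8 peak in BALB/c mutant 16, with C57BL/6 wild type 2 and BALB/c mutant 17 next, in this order for Myh3 and the reverse for Myh8, and Myh1 also peaks in BALB/c mutant 16 and is higher in all BALB/c than in all C57BL/6 samples.

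A share within the heavy chains was taken in the 3 libraries that had at least 200 heavy chain counts. It is free of the amount of muscle RNA only where every form follows that amount, and Myh7 and Myh1 did not throughout. Myh7 was at 0.416 and 0.322 CPM in C57BL/6 wild type 1 and 3, near the 0.542 CPM of C57BL/6 wild type 2. Myh1 was at 0.586 to 0.901 CPM in BALB/c wild type and at 0.120 CPM in C57BL/6 wild type 2. After scaling each gene by its coding length, Myh8 made up 80.8% (95% exact binomial interval 79.3 to 82.2%) of the heavy chains in BALB/c mutant 16, 67.9% (61.1 to 74.1%) in BALB/c mutant 17 and 51.1% (42.9 to 59.3%) in C57BL/6 wild type 2. Myh3 made up 13.4% (12.2 to 14.8%), 24.0% (18.4 to 30.4%) and 29.2% (22.1 to 37.1%) in the same 3 libraries. The developmental pair was therefore the bulk of the heavy chains in each, with the neonatal form ahead of the embryonic one. The intervals rest on 2779, 212 and 153 fragments, treat each fragment as independent and so cover counting error only. They compare single libraries, not groups.

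The adult fast forms and the slow form took up the remainder. In BALB/c mutant 16, Myh1 made up 2.85% (2.26 to 3.55%), Myh2 1.81% (1.35 to 2.38%) and Myh4 1.13% (0.772 to 1.61%), and Myh7 had 0 counts (exact interval up to 0.134%). In C57BL/6 wild type 2, Myh2 made up 7.84% (4.12 to 13.3%), Myh7 5.91% (2.74 to 10.9%), Myh4 4.63% (1.88 to 9.30%) and Myh1 1.32% (0.160 to 4.69%). The slow form was thus countable in C57BL/6 wild type 2 and not in BALB/c mutant 16. The intervals of the 2 libraries do not overlap for Myh3, Myh8, Myh2, Myh4 or Myh7. How far these differences follow the amount of muscle RNA was not tested. The 9 other libraries had 12 to 78 heavy chain counts, too few for a share. The adult fast genes are close in sequence, and 25.4% of the 50-base words of Myh1, 22.9% of those of Myh2 and 18.9% of those of Myh4 also occur in another gene, against 12.1% for Myh8 and 4.76% for Myh3, so the split among Myh1, Myh2 and Myh4 is uncertain. Myh7 shared 15.6% of its words, with the heart gene Myh6.

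**Figure D3:**
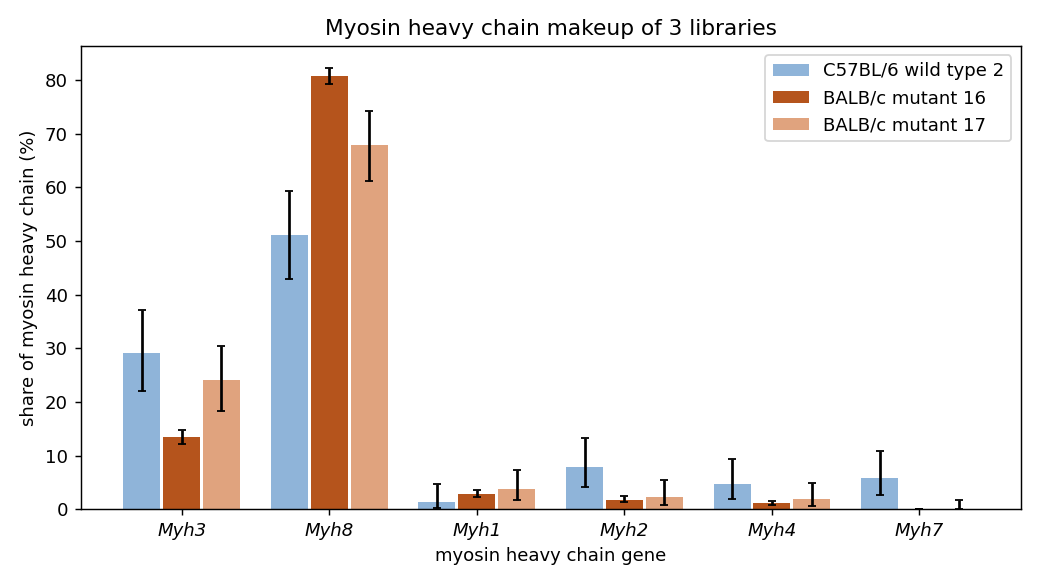
Share of each myosin heavy chain gene (horizontal axis) in the length-scaled heavy chain counts of the 3 libraries with at least 200 such counts, in percent, with 95% exact binomial intervals that cover counting error only. Myh8 is the largest share in each, at 51.1% in C57BL/6 wild type 2, 80.8% in BALB/c mutant 16 and 67.9% in BALB/c mutant 17.

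The myosin light chains stabilise and tune the heavy chain's lever arm. The fast light chain Myl1 was at 35.3 CPM in BALB/c mutant 16, 13.5 CPM in C57BL/6 wild type 2 and 2.84 CPM in BALB/c mutant 17, and at 0.090 to 1.17 CPM in the other 9 samples. The fast regulatory light chain Mylpf followed the same order, with 33.9, 11.5 and 3.23 CPM in those 3 libraries and 0.146 to 2.34 CPM in the rest. Myl2, the slow and ventricular regulatory light chain, was nearly absent, with a highest value of 0.422 CPM in C57BL/6 wild type 2, and was not tested. Myl4, the embryonic and atrial light chain, varied little between libraries, at 2.57 to 4.82 CPM in 11 of them and 9.05 CPM in BALB/c mutant 16. Mylk2, the kinase of the fast regulatory light chain, was at 1.80 CPM in BALB/c mutant 16 and at 0 to 0.970 CPM elsewhere.

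Skeletal actin reached the highest CPM of the 47 genes, in BALB/c mutant 16. Acta1, the actin of mature skeletal thin filaments, was at 3.33, 31.7 and 0.643 CPM in C57BL/6 wild type, at 0.542, 0.340 and 1.99 CPM in C57BL/6 mutant, at 0.676, 2.66 and 3.10 CPM in BALB/c wild type, and at 155, 9.38 and 0.886 CPM in BALB/c mutant samples. Actc1, the actin of heart and of fetal skeletal muscle, was close in the muscle-rich pair, at 6.32 CPM in C57BL/6 wild type 2 and 6.60 CPM in BALB/c mutant 16, and at 0 to 0.988 CPM elsewhere. Acta1 therefore made up 82.9% (79.7 to 85.8%) of the length-scaled counts of the pair of actins in C57BL/6 wild type 2 and 95.8% (94.96 to 96.5%) in BALB/c mutant 16. Per kilobase of coding sequence, Acta1 was the highest of the 47 genes in both of these libraries, at 108 CPM per kilobase in BALB/c mutant 16 and 22.1 CPM per kilobase in C57BL/6 wild type 2. In the median of the other 10 libraries it ranked 9, at 1.00 CPM per kilobase.

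The troponins put the thin filament under calcium control and exist in fast and slow versions. For troponin T, which ties the complex to tropomyosin, fast Tnnt3 was at 1.77, 10.5 and 1.02 CPM in C57BL/6 wild type, at 0.407, 0.631 and 0.700 CPM in C57BL/6 mutant, at 0.751, 1.17 and 0.820 CPM in BALB/c wild type, and at 23.4, 1.94 and 0.443 CPM in BALB/c mutant samples. Slow Tnnt1 varied less, at 1.87, 2.89 and 1.45 CPM, 1.13, 0.970 and 0.431 CPM, 1.88, 1.48 and 1.76 CPM, and 2.40, 1.68 and 1.48 CPM in the same groups. Part of the region that Tnnt3 covers, 7936 bases, is shared with the predicted gene Gm14492, which held 56 to 128 counts, and the strand setting of the counting is not given in the sources used here. Tnnt2, the cardiac and early skeletal troponin T, was at 1.199 CPM in BALB/c mutant 16 and 0.783 CPM in C57BL/6 wild type 2.

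For troponin I, the inhibitory subunit, fast Tnni2 was at 0.831, 6.44 and 0.482 CPM in C57BL/6 wild type, at 0.361, 0.194 and 0.323 CPM in C57BL/6 mutant, at 0.676, 0.988 and 0.996 CPM in BALB/c wild type, and at 15.3, 1.55 and 0.295 CPM in BALB/c mutant samples. Slow Tnni1 was at 0.260, 1.75 and 0.268 CPM, 0.090, 0.291 and 0.323 CPM, 0.150, 0.432 and 0.468 CPM, and 1.14, 0.344 and 0.148 CPM in the same groups. Slow Tnni1 was thus higher in C57BL/6 wild type 2 than in BALB/c mutant 16, the reverse of its fast partner. For troponin C, the calcium sensor, fast Tnnc2 was at 0.831, 9.15 and 0.214 CPM in C57BL/6 wild type, at 0.181, 0.194 and 0.377 CPM in C57BL/6 mutant, at 0.150, 0.618 and 0.644 CPM in BALB/c wild type, and at 22.0, 2.45 and 0.640 CPM in BALB/c mutant samples. Slow and cardiac Tnnc1 was at 0.727, 1.87 and 0.214 CPM, 0.723, 1.12 and 0.808 CPM, 0.601, 0.988 and 0.937 CPM, and 1.14, 1.03 and 0.837 CPM in these groups.

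The fast form was the larger part of each troponin in both muscle-rich libraries, and more so in BALB/c mutant 16. The length-scaled share of the fast form was 75.1% (68.6 to 80.9%) in C57BL/6 wild type 2 and 89.1% (85.5 to 92.0%) in BALB/c mutant 16 for troponin T. It was 86.0% (80.2 to 90.6%) and 95.7% (93.4 to 97.4%) for troponin I, and 83.3% (77.1 to 88.4%) and 95.2% (92.5 to 97.1%) for troponin C. The intervals of the 2 libraries do not overlap for any of the 3 subunits. Outside this pair, slow Tnnt1 and Tnnc1 reached 1.88 and 1.12 CPM, against 2.40 and 1.14 CPM in BALB/c mutant 16. Slow Tnni1 reached 0.468 CPM there, against 1.14 CPM in BALB/c mutant 16. A fast share can therefore rise with the amount of muscle RNA alone, and a difference in fibre type was not tested. Over all fibre type genes listed, the 5 developmental genes summed to 174 CPM in BALB/c mutant 16 and 19.3 CPM in C57BL/6 wild type 2, a ratio of 8.998. The 13 fast genes summed to 199.7 and 67.6 CPM, a ratio of 2.96, and the 7 slow genes to 10.7 and 9.70 CPM, a ratio of 1.10. The developmental ratio rests on Myh8, and the other 4 developmental genes summed to 38.7 and 14.6 CPM, a ratio of 2.66. Of the 3 classes as listed, the slow genes differed least between the pair of libraries. The slow list leaves out Mybpc1, the slow-type myosin-binding protein C, while the fast list holds its fast-type partner Mybpc2. Mybpc1 was at 18.2 CPM in BALB/c mutant 16 and 4.82 CPM in C57BL/6 wild type 2, so the slow ratio depends on the list. Outside the pair, the slow sum was already at 2.59 to 5.37 CPM.

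The excess of BALB/c mutant 16 over C57BL/6 wild type 2 was uneven across filament parts. The 6 heavy chains summed to 167 CPM in BALB/c mutant 16 and to 9.21 CPM in C57BL/6 wild type 2, while the 7 troponins summed to 66.7 and 33.4 CPM and the actins to 162 and 38.0 CPM. These sums are not scaled by length and are compared between libraries, not between parts. BALB/c mutant 17 held 9.13 CPM of heavy chains, almost as much as C57BL/6 wild type 2, beside 9.38 CPM of troponins and 10.1 CPM of actins.

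Of the giant and myosin-binding proteins, titin (Ttn), the spring that runs from the Z-disc to the M-band, departed from the rest. Ttn was at 7.22, 12.6 and 6.81 CPM in C57BL/6 wild type, at 11.5, 15.1 and 16.3 CPM in C57BL/6 mutant, at 2.03, 2.41 and 3.28 CPM in BALB/c wild type, and at 24.5, 3.79 and 2.76 CPM in BALB/c mutant samples. Apart from BALB/c mutant 16, all BALB/c libraries lay below all C57BL/6 libraries. The thin filament ruler nebulin (Neb) was at 10.7 CPM in BALB/c mutant 16 and at 0.452 to 2.05 CPM elsewhere. Mybpc1, the slow-type myosin-binding protein C, was at 18.2 CPM in BALB/c mutant 16, at 4.82 CPM in C57BL/6 wild type 2 and at 0.194 to 1.21 CPM elsewhere. Its fast-type partner Mybpc2 showed another order, at 3.01, 1.87 and 2.20 CPM in C57BL/6 wild type, at 1.45, 0.243 and 0.377 CPM in C57BL/6 mutant, at 0.225, 0.432 and 0.996 CPM in BALB/c wild type, and at 3.90, 1.03 and 1.13 CPM in BALB/c mutant samples. For Mybpc2 it was C57BL/6 wild type 1, not 2, that was highest in its group. Mybph, a further myosin-binding protein, reached 0.520 CPM at most.

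At the Z-disc, where thin filaments of neighbouring sarcomeres are anchored, the 2 sarcomeric alpha-actinins had different patterns. Actn2 was at 21.5 CPM in BALB/c mutant 16, at 3.13 CPM in C57BL/6 wild type 2 and at 0.098 to 1.29 CPM elsewhere. Actn3, the form of fast fibres in mature muscle, was at 3.43, 6.32 and 4.503 CPM in C57BL/6 wild type, at 6.69, 5.97 and 5.55 CPM in C57BL/6 mutant, at 12.8, 14.8 and 15.05 CPM in BALB/c wild type, and at 13.97, 12.2 and 12.6 CPM in BALB/c mutant samples. Actn3 thus separated the strains with no overlap and did not stand out in BALB/c mutant 16. The scaffold Ldb3 was at 9.77 CPM in BALB/c mutant 16, and at 3.22, 4.64 and 1.82 CPM in C57BL/6 wild type 1, 2 and 3, above the 0.485 to 1.22 CPM of the other 8 libraries. The titin cap Tcap reached 3.36 CPM, the filament-linked Xirp2 1.56 CPM, Smpx 1.499 CPM and myotilin (Myot) 2.82 CPM, each highest in BALB/c mutant 16.

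The M-band holds the thick filaments in register. Myom1, its main cross-linker, was among the most evenly expressed of the 47 genes, at 13.1 to 26.0 CPM over the 12 samples. Its partner Myom2 was at 5.58 CPM in BALB/c mutant 16, at 0.903 CPM in C57BL/6 wild type 2 and at 0 to 0.443 CPM elsewhere.

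In calcium handling, the pump Atp2a1 of fast fibres was highest in BALB/c mutant 16, at 34.1 CPM, against 4.58 CPM in C57BL/6 wild type 2 and 0.859 to 2.15 CPM elsewhere. Ryr1 was at 2.44, 5.06 and 2.09 CPM in C57BL/6 wild type, at 1.27, 0.582 and 0.970 CPM in C57BL/6 mutant, at 0.977, 1.61 and 0.878 CPM in BALB/c wild type, and at 11.3, 1.72 and 1.38 CPM in BALB/c mutant samples. The calcium stores Casq1 and Casq2 reached 8.21 and 4.92 CPM in BALB/c mutant 16, and Trdn, which links them to the ryanodine receptor, 1.26 CPM. The channel subunit Cacng1 reached 1.80 CPM there and was not tested. Parvalbumin (Pvalb), the calcium buffer of adult fast fibres, was at 0 in BALB/c mutant 16. It held 0.260, 0.602 and 0.214 CPM in C57BL/6 wild type and 0.723, 0.146 and 0.323 CPM in C57BL/6 mutant samples, and 0, 0 and 0.059 CPM in BALB/c wild type and 0, 0.086 and 0 CPM in BALB/c mutant samples. Pvalb was thus counted in every C57BL/6 library and in 2 BALB/c libraries.

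For energy supply, muscle creatine kinase (Ckm), which regenerates ATP during contraction, was at 28.6 CPM in BALB/c mutant 16, 9.82 CPM in C57BL/6 wild type 2 and 0.049 to 1.89 CPM elsewhere. Its mitochondrial partner Ckmt2 reached 0.959 CPM and was not tested. Eno3 (muscle enolase) and Pygm (muscle glycogen phosphorylase) were even, at 18.04 to 26.6 and 8.002 to 11.9 CPM in 11 libraries, with 38.2 and 21.9 CPM in BALB/c mutant 16. Together with Myom1, Actn3, Ttn and Myl4 they were the 6 genes with the highest median CPM. These 6 made up 57.4% to 85.7% of the CPM of all 47 genes in the 10 libraries other than the muscle-rich pair, 33.0% in C57BL/6 wild type 2 and 17.2% in BALB/c mutant 16.

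The start regions of 5 genes are shown because 4 of them (Acta1, Ckm, Myh8 and Tnnc2) stood high in the same pair of libraries and the fifth, Myom1, did not. The sequences are RefSeq's for GRCm38.p6, 250 bases before to 50 bases after the annotated start, and 37 of the 47 genes had such an entry. Capitals mark matches on either strand to the E-box CANNTG (the site class of the myogenic factors), the TATA box TATAAA, the CArG box of serum response factor and the MEF2 site. In the Myh8 promoter the MEF2 match and the TATA match overlap.
Acta1 promoter, chr8:123894726-123895025, minus strand: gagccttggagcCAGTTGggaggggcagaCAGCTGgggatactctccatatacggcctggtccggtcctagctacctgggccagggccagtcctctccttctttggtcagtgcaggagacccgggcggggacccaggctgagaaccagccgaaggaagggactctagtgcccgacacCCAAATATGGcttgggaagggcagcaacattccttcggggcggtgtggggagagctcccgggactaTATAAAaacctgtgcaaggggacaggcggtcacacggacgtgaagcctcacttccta
Ckm promoter, chr7:19410844-19411143, plus strand: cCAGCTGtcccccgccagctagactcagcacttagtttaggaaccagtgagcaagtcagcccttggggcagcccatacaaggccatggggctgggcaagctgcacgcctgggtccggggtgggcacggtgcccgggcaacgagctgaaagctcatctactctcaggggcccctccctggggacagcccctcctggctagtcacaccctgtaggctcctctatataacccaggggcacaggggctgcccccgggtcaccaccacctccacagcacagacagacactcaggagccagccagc
Myh8 promoter, chr11:67276874-67277173, plus strand: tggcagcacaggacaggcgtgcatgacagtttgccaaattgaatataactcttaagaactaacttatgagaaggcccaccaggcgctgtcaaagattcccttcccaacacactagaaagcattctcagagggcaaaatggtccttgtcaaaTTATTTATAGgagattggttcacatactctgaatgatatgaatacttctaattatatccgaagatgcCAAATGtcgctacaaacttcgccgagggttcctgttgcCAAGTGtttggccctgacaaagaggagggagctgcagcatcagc
Tnnc2 promoter, chr2:164779685-164779984, minus strand: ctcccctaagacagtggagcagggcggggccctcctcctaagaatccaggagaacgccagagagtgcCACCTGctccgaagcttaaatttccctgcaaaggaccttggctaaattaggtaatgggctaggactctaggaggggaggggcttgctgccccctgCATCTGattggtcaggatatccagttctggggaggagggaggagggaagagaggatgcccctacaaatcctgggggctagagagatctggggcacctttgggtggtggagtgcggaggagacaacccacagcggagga
Myom1 promoter, chr17:71019307-71019606, plus strand: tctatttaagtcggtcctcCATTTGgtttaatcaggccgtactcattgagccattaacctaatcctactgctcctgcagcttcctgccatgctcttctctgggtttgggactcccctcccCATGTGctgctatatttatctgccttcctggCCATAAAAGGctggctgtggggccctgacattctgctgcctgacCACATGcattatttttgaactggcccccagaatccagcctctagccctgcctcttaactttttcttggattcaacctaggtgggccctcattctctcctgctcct
E-boxes occurred in all 5, and Myom1 held 3 of them and a CArG box, as Acta1 held 2 and a CArG box. Over the 43 start regions of these 37 genes, a CArG box was found in 7 (16.3%) and a MEF2 site in 7 (16.3%), against 1.63% and 1.86% of all 32851 RefSeq start regions. An E-box was found in 81.4% against 72.3%, and a TATA box in 25.6% against 13.6%. These are matches of letters and not shown to be bound sites.

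The genotype comparison in C57BL/6 asked how the Crouzon mutation changed expression on that background. Tnnt1, the slow troponin T, fell in the mutants, and Myom1 rose. Tnnt1 had a wild type mean of 2.07 ± 0.742 CPM and a mutant mean of 0.844 ± 0.366 CPM (both ± SD over n = 3 samples), a log2 change of -1.28 (SE 0.371, edgeR quasi-likelihood test, Benjamini-Hochberg adjusted p = 0.0280), and all 3 mutants lay below all 3 wild types. Myom1 averaged 16.6 ± 3.08 CPM and 21.8 ± 2.27 CPM, a log2 change of 0.40 (SE 0.128, adjusted p = 0.0427). These were 2 of the 43 genes tested, while 23.9% of all 16190 genes tested were called (11.3% higher and 12.6% lower). Of the 43, 35 had a negative log2 change, with a median of -1.70 against -0.004 over all genes.

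Both calls were sensitive to single libraries, and each held in 2 of the 6 fits that left out 1 sample of these groups. Neither held in a fit of only the groups compared, with adjusted p = 0.0982 for Tnnt1 and 0.137 for Myom1 (edgeR).

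C57BL/6 wild type 2 carried much of the median over the 43 genes. Without it, the median of the 43 was -0.50, and the genes called were Actn3 and Myom1, both higher in mutants, beside 20% of all genes, while Tnnt1 was no longer called (log2 change -0.97, adjusted p = 0.0984). Without both muscle-rich libraries 5 of 40 genes were called: Ttn, Actn3 and Myom1 higher and Ldb3 and Ryr1 lower, beside 18.1% of all genes. Myom1 was not called when libraries were scaled to total counts alone, which shifts the median of all genes by -0.20 (log2), and its log2 change was then 0.21 (adjusted p = 0.147). The markers of airway and olfactory epithelium moved with genotype here, as given above, as did the 5 erythroid markers with a row in the table, all 5 of which fell in C57BL/6 mutants. The 5 cartilage markers summed to 6680, 4552 and 4889 CPM in C57BL/6 wild type and to 2563, 236 and 251 CPM in mutant samples, with Acan and Comp called lower, and 4 of 6 osteoblast markers were called higher. The 5 tendon markers summed to 369, 497 and 494 CPM in wild type and 280, 315 and 304 CPM in mutant samples, with Fmod and Tnmd called lower. The part of these cells in the muscle values was not tested.

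Among other muscle genes from a list of 70, of which 68 had a row and 55 were tested, 3 rose and 4 fell in C57BL/6 mutants, a smaller share than the 23.9% called over all genes. The thin filament cap Tmod1, which is also a red blood cell protein, changed by -2.70 (log2, SE 0.381, adjusted p = 0.000958), and Hrc, a calcium-binding protein of the sarcoplasmic reticulum, by 0.57 (SE 0.148, adjusted p = 0.0175). Of 12 myogenic regulators, 7 were tested, and 2 rose and 3 fell. Pax7 fell, with a log2 change of -3.03 (SE 0.772, adjusted p = 0.0168), and Mef2c, also active in bone and other tissues, rose by 0.53 (SE 0.103, adjusted p = 0.00509).

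**Figure D4:**
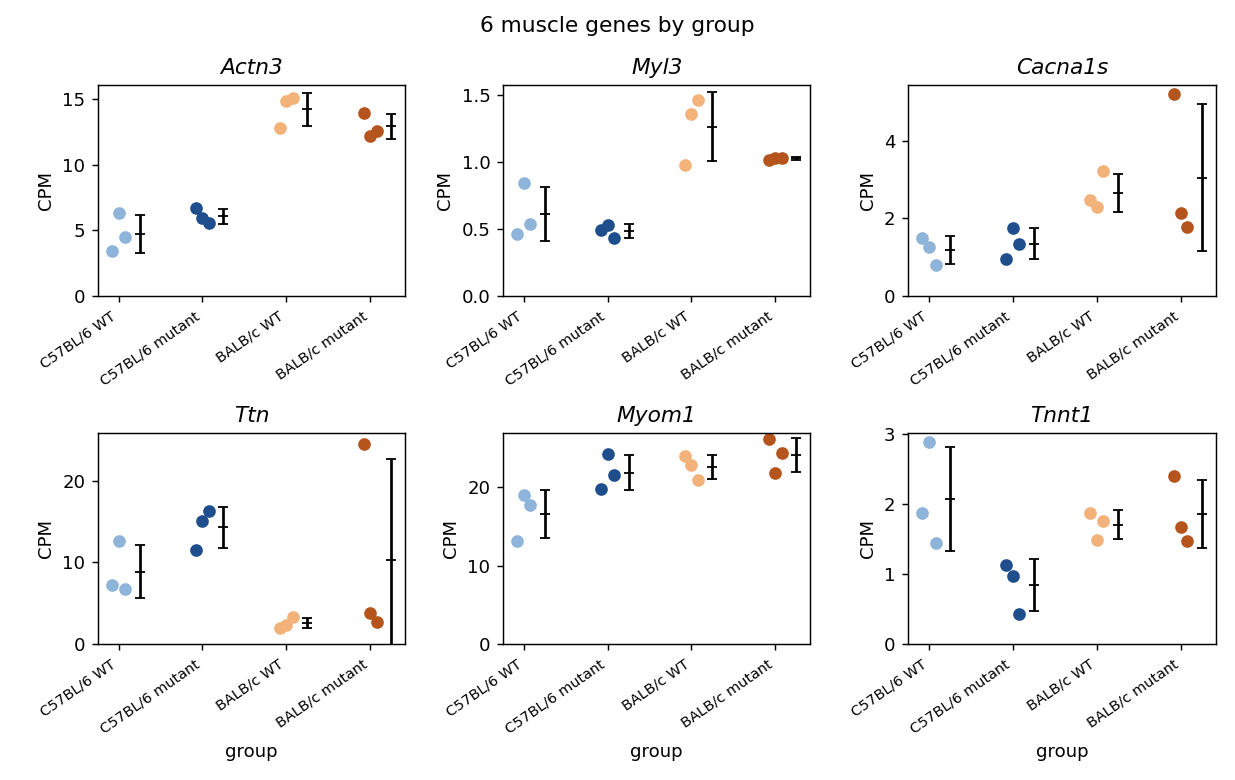
CPM of 6 genes (panels) in each sample by group, with the mean and SD over 3 samples beside the points (the lower end of a bar that would pass below 0 is not drawn). Actn3 and Myl3 are higher in all BALB/c than in all C57BL/6 samples, Tnnt1 is lowest in C57BL/6 mutants, and the Ttn and Cacna1s values of BALB/c mutants are spread by sample 16.

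In BALB/c, the genotype comparison called none of the 43 genes by edgeR, beside 0.136% of all genes (22 of 16190, 0.0926% higher and 0.0432% lower). At an unadjusted p under 0.05 there were 21, beside 1901 of all 16190 genes. DESeq2 called 3 (Neb, Mybpc1 and Myh8), beside 323 of all genes, while limma-voom called 0, beside 44. Log2 changes were positive for 40 of the 43 genes, with a median of 1.99 against 0 over all genes. The lowest p belonged to Myh8, with a log2 change of 6.40 (SE 1.75, adjusted p = 0.182), and the next to Mybpc1, with 4.64 (SE 1.38, adjusted p = 0.214). Both groups overlapped for each of these genes, since BALB/c mutant 18 lay within the wild type range for Myh8. Without BALB/c mutant 16 the median fell to 0.15, and 0 genes were called. Schwann cell markers were high in BALB/c mutant 16 only, at 155 CPM. They were at 15.6 CPM in BALB/c mutant 17, the next BALB/c library in muscle RNA. The 5 erythroid markers summed to 493, 401 and 429 CPM in BALB/c mutants and 316, 281 and 199.98 CPM in wild type, with Rhd called higher. The part of these cells was not tested.

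The strain comparison in wild type samples asked how the backgrounds differ without the mutation. The call was made for 7 of the 43, with 4 at a higher level in BALB/c and 3 at a lower one, while 48.5% of all genes were called (22.8% higher and 25.6% lower). For all 7, every BALB/c value lay on one side of every C57BL/6 value. Actn3 was higher in BALB/c, at 14.2 ± 1.25 CPM against 4.75 ± 1.46 CPM (SD, n = 3 each), a log2 difference of 1.58 (SE 0.183, adjusted p = 5.14e-05). It was called under all 14 alternatives run. The slow and ventricular light chain Myl3 was higher at 1.27 ± 0.256 against 0.616 ± 0.200 CPM (log2 1.05, SE 0.307, adjusted p = 0.0146), with single values of 0.977, 1.36 and 1.46 CPM against 0.468, 0.843 and 0.536 CPM. Cacna1s was higher at 2.48, 2.29 and 3.22 CPM against 1.51, 1.27 and 0.804 CPM (log2 1.16, SE 0.413, adjusted p = 0.0359), and Myom1 at 23.9, 22.7 and 20.8 CPM against 13.1, 19.0 and 17.6 CPM (log2 0.44, SE 0.129, adjusted p = 0.0143). Of the 14 alternatives, Myom1 was called under 13, Myl3 under 12 and Cacna1s under 9. Cacna1s held in 2 of the 6 fits that left out 1 sample of these groups.

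The 3 genes lower in BALB/c wild type were Pvalb, Mybpc2 and Ttn. Mybpc2 averaged 0.551 ± 0.399 CPM in BALB/c and 2.36 ± 0.590 CPM in C57BL/6 (log2 -2.07, SE 0.735, adjusted p = 0.0350). It was called under 10 of 14 alternatives, and in 2 of the 6 fits that left out 1 sample of these groups. Ttn averaged 2.57 ± 0.641 and 8.89 ± 3.26 CPM (log2 -1.78, SE 0.675, adjusted p = 0.0461) and was called under 5 of the 13 alternatives that gave it an adjusted p. Pvalb differed at an adjusted p of 0.0202 (edgeR), but rests on 2 counts in 1 BALB/c library, so no fold is given. It held in 3 of the 6 fits that left out 1 sample. The median over the 43 genes was -1.38 with all samples and 0.04 without C57BL/6 wild type 2, when Actn3, Myl3, Myom1 and Mybpc2 were called, beside 44% of all genes. Without both muscle-rich libraries 10 of 40 genes were called, 6 higher and 4 lower, beside 42.9% of all genes. Markers of airway and olfactory epithelium, high in all 3 C57BL/6 wild type and low in all 3 BALB/c wild type samples, divided the same groups. So did the 5 cartilage markers, at 549 to 1651 CPM in BALB/c and 4552 to 6680 CPM in C57BL/6 wild type, with 2 called lower, and the 5 tendon markers, at 665 to 760 against 369 to 497 CPM, with 4 called higher. Their part was not tested.

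Other muscle genes differed in both directions, with 8 higher and 11 lower in BALB/c wild type of 55 tested, a smaller share than the 48.5% of all genes called. The myosin chaperone Unc45b was higher by 0.89 (log2, SE 0.110, adjusted p = 8.69e-05), Hrc higher by 1.08 (SE 0.148, adjusted p = 0.000163), and the costamere-linked Cmya5 lower, at -0.98 (SE 0.172, adjusted p = 0.000821). Of the 7 myogenic regulators tested, Pax3 and Pax7 were lower in BALB/c wild type, at log2 differences of -4.00 (SE 0.986, adjusted p = 0.00585) and -2.94 (SE 0.782, adjusted p = 0.00877).

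The strain comparison in mutants called 24 of the 43 genes, 23 higher in BALB/c and Pvalb lower, beside 36.9% of all genes (18% higher and 18.9% lower). By role, the calls took in 4 of 5 heavy chains tested (Myh1, Myh2, Myh3, Myh8), 4 of 4 light chains, 4 of 7 troponins, 3 of 7 Z-disc genes and 4 of 7 calcium genes. By fibre type, 3 of 5 developmental genes and 9 of 12 fast genes were higher, and 2 of 6 slow genes (Tnnt1 and Myl3). The lowest p was that of Actn3, with a log2 difference of 1.09 (SE 0.179, adjusted p = 0.000631). Myl4 was at 9.05, 4.26 and 4.82 CPM in BALB/c and 2.58, 2.62 and 2.59 CPM in C57BL/6 mutants (log2 1.22, SE 0.293, adjusted p = 0.00686). Myl3 was at 1.02, 1.03 and 1.03 CPM against 0.497, 0.534 and 0.431 CPM (log2 1.07, SE 0.308, adjusted p = 0.0174). For these 3 genes all BALB/c mutant samples lay above all C57BL/6 mutant samples, and for Myl4 sample 16 stood above the other BALB/c mutants. Without that sample the Myl4 difference was 0.82 (adjusted p = 0.0300).

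The heavy chain differences rested on uneven samples. Myh8 differed by 7.88 (log2, SE 1.94, adjusted p = 0.00770) and Myh3 by 6.14 (SE 1.64, adjusted p = 0.0120). Myh1 had an adjusted p of 0.00283 in edgeR, and since C57BL/6 mutants held 2, 0 and 0 counts no fold is given. Neb, at 10.7, 1.55 and 1.03 CPM against 0.452, 0.534 and 0.916 CPM, differed by 2.80 (SE 0.820, adjusted p = 0.0190). Tnnc2 differed by 5.05 (SE 1.498, adjusted p = 0.0201) and Mybpc1 by 4.45 (SE 1.33, adjusted p = 0.0213), the latter with overlapping ranges, since BALB/c mutant 18 was at 0.197 CPM and C57BL/6 mutant 6 at 0.377 CPM. Pvalb, lower in BALB/c mutants, had an adjusted p of 0.0225 (edgeR).

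The sizes of these differences depended on BALB/c mutant 16. Without it, the log2 difference of Myh8 was 4.04 (adjusted p = 0.0400) and that of Myh3 3.54 (adjusted p = 0.0769). It was 2.64 for Tnnc2 (adjusted p = 0.136), 1.26 for Mybpc1 (adjusted p = 0.315) and 1.04 for Neb (adjusted p = 0.185), so that of these 5 genes Myh8 was still called.

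Without BALB/c mutant 16, 6 of the 43 genes were called, when 27.3% of all genes were, and 5 of them were among the 24: Actn3, Myl3, Myl4, Myh1 and Myh8. The median over the 43 fell from 2.34 to 0.73. The sixth was Ttn, which was then lower in BALB/c by 2.12 (log2 difference -2.12, adjusted p = 0.000676), against -0.48 (adjusted p = 0.585) with all samples. Of the 55 other muscle genes tested with all samples, 12 were higher and 5 lower in BALB/c mutants, a smaller share than the 36.9% of all genes called in that fit, led by Tmod1 (log2 2.35, SE 0.378, adjusted p = 0.000536). Schwann cell markers were high in the same library and erythroid markers were lowest in C57BL/6 mutants (48.6 to 76.2 CPM). Tendon markers were at 440 to 615 CPM in BALB/c and 280 to 315 CPM in C57BL/6 mutants, with 3 of 5 called higher. Of the 6 markers of airway and olfactory epithelium, 4 were called lower in BALB/c mutants. Of 6 osteoblast markers, 1 was called higher and 3 lower, and the fat markers Plin1 and Adipoq were called higher. The part of these cells was not tested.

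The interaction compared the genotype change in BALB/c with that in C57BL/6. It called 9 of the 43 genes, all with a positive sign, beside 10% of all genes (5.46% with a positive sign). The 9 spread over filaments, Z-disc, calcium release and energy supply: Myh8, Acta1, Tnnt3, Tnnc2, Mybpc1, Mybpc2, Ldb3, Ryr1 and Ckm. Mybpc1 had the lowest p, with a log2 difference of 7.49 (SE 1.89, adjusted p = 0.0329), followed by Tnnc2 at 7.86 (SE 2.03, adjusted p = 0.0346) and Ryr1 at 3.80 (SE 1.02, adjusted p = 0.0390). Each of these had its high values in C57BL/6 wild type 2 and BALB/c mutant 16, which lie in the opposite corners of the design. Without BALB/c mutant 16, 0 of the 43 genes were called and the median fell from 3.80 to 1.55. Without C57BL/6 wild type 2 none of the 9 was called, and Actn3 was, with a negative sign. The median then fell from 3.80 to 3.03, with 37 of the 43 genes positive. Without both of these libraries the median over the 40 genes still tested fell from 3.50 to 0.85, with 28 positive and 12 negative. The calls were also lost, 0 of 43 each, without C57BL/6 mutant 5, C57BL/6 mutant 6, BALB/c wild type 13 or BALB/c wild type 14. All 5 erythroid markers were called with a positive sign in the interaction too, and 3 of 6 osteoblast markers (Bglap, Dmp1 and Sp7) with a negative one, and their part was not tested.

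**Figure D5:**
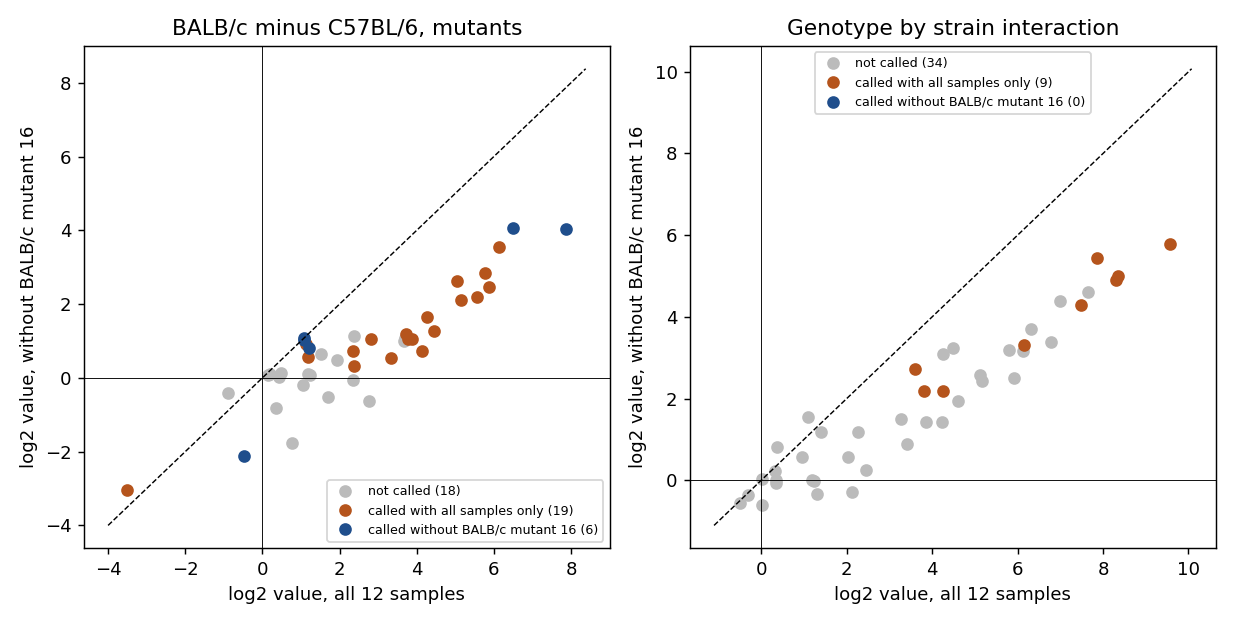
Log2 differences of the 43 genes tested with all 12 samples (horizontal axis) and without BALB/c mutant 16 (vertical axis), for the strain comparison in mutants (left) and the interaction (right), with the dashed line at equal values. Most points lie below the line: 24 genes were called with all samples and 6 without sample 16 on the left (blue, 5 of them among the 24), and 9 and 0 on the right.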

How the data were processed

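RNA was sequenced from 12 samples, 3 in each of 4 groups assigned from the labels. The authors deposited a table of gene counts, which are raw and even in every row, as they would be if a pair added both of its reads. Per the submitters' processing notes, TopHat2 2.0.6, HTSeq, DESeq2 and the mm10 build were named. Roles and settings are not given in the sources used here. The deposited counts were analysed with edgeR 4.0.16 in R 4.3.3: filterByExpr (minimum count 10, minimum total 15) kept 16190 of 23358 genes, libraries were scaled by TMM, and a quasi-likelihood model with 4 group means was fitted to all 12 samples. Standard errors are those implied by its F statistic. Benjamini-Hochberg adjustment ran over all genes, and genes were called at an adjusted p under 0.05. The script was tested on simulated data. Alternatives were DESeq2 1.42.0, limma-voom 3.58.1, other scalings, no filter, only the groups compared, counts divided by 2, and each replicate left out. One more, without both muscle-rich libraries, was chosen after seeing the data.

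The genes and lists were chosen with earlier results of these data known. Values per sample were given for heavy chains, the fast and slow troponin pairs and, per comparison, the called genes with the 10 lowest p-values, and up to 3 genes of another list were named. Others were named by role after their values were seen. Of the value columns, 0 belonged to no sample. Libraries of 27.2 M to 46.5 M counts set the limits given for a count of 0. Start regions are RefSeq's (GRCm38.p6), and shared 50-base words are from GENCODE transcripts. Some marker genes of the lists are not reported here and were left out of their sum.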

Additional observations from a re-analysis of the deposited data

Results flagged for a closer look

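The genotype change differed between the strains, by the interaction term of the edgeR model, for 9 of the 43 muscle genes tested. The log2 differences (change in BALB/c minus change in C57BL/6) were 9.57 for Myh8, 8.30 for Acta1, 6.14 for Tnnt3, 7.86 for Tnnc2, 7.49 for Mybpc1, 3.60 for Mybpc2, 4.26 for Ldb3, 3.80 for Ryr1 and 8.36 for Ckm. Their adjusted p-values in edgeR ran from 0.0329 (Mybpc1) to 0.0478 (Acta1). None of the 9 was called without BALB/c mutant 16 or without C57BL/6 wild type 2, nor without C57BL/6 mutant 5 or 6 or BALB/c wild type 13 or 14. Without BALB/c mutant 16, the difference was still positive for each of the 9, from 2.19 for Ldb3 to 5.78 for Myh8. Without C57BL/6 wild type 2 it ran from 3.31 for Ryr1 to 7.39 for Myh8 (adjusted p = 0.0585 to 0.196), with 5.18 for Tnnc2. Without both muscle-rich libraries, none of the 9 was called. Over all alternatives run, the lowest difference of each of the 9 ran from 1.65 for Tnnt3 to 3.56 for Myh8. No test for outlying values was run within the groups of 3 samples.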

How the results depend on the processing

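No paired analysis was possible because the replicate numbers of the labels are not shared between groups. No call of a gene changed sign under an alternative. Genes that were not called did: for strain in wild type, 23 of the 43 were positive without C57BL/6 wild type 2, against 9. Of the 43 muscle genes tested, the number called in the C57BL/6 genotype comparison (2) was 7 with DESeq2, 4 with limma-voom, 1, neither Tnnt1 nor Myom1, in a fit of only the groups compared (1458 of all genes, against 3867) and 5 without both muscle-rich libraries. In BALB/c (0) it was 3 with DESeq2. All genes called there (22) became 323 with DESeq2, 44 with limma-voom, 4 with total counts, 71 in a fit of only the groups compared and 0 without both libraries. The strain comparison in wild type (7) gave 15 in a fit of only the groups compared. In mutants (24) it gave 6 with limma-voom and 8 without both libraries. The interaction (9) gave 16 with DESeq2 (2707 of all genes, against 1626), 1 with limma-voom and 0 without both libraries (693 of all genes).

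With each replicate left out in turn, these counts ran from 0 to 4 (all genes 1724 to 4833) in C57BL/6, stayed at 0 (0 to 95) in BALB/c, and ran from 2 to 5 (6567 to 7319) for strain in wild type, from 6 to 29 (4500 to 5374) for strain in mutants and from 0 to 12 (624 to 3129) for the interaction. A group cut to 2 samples was taken to vary like the others. For strain in mutants, the count was 6 without BALB/c mutant 16, 9 without C57BL/6 mutant 5 and 10 without C57BL/6 mutant 6. For strain in wild type, 4 were called without C57BL/6 wild type 1 or 2 or BALB/c wild type 14 or 15, and 2 without BALB/c wild type 13. In C57BL/6, 0 were called without wild type 1, mutant 5 or mutant 6, and 4 without mutant 4. For the interaction, 0 were called without C57BL/6 mutant 5 or 6 or BALB/c wild type 13 or 14 or BALB/c mutant 16, 1 without C57BL/6 wild type 2 or BALB/c wild type 15, 3 without C57BL/6 wild type 1 and 5 without BALB/c mutant 17. The cause was not tested.

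Scaling to total counts moved the median log2 value of all genes by -0.20 in C57BL/6, by -0.11 and 0.12 for strain in wild type and mutants and by 0.23 for the interaction. The share of higher calls among all genes called went from 47.5% to 13.2%, from 47.1% to 31.2%, from 48.8% to 67.8% and from 54.4% to 90.5% in turn. Shares of counts without length scaling stayed within the intervals given except for Tnni2, at 78.7% against 86.0% in C57BL/6 wild type 2 and 93.1% against 95.7% in BALB/c mutant 16. In most libraries the heavy chains held too few counts for an isoform share, which sets the limit of these data on fibre type.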
